A study of Mus musculus with 12 samples.

Results

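The liver levels of 9 mouse genes linked to fat storage under the nuclear receptor PPARgamma are described here, of 19252 genes in the deposited gene table. The 9 were found by gene symbol alone. They are Pparg, the receptor itself; Cd36 and Fabp4, which take up and carry fatty acids; Mogat1, which builds diacylglycerol; Fitm1, Cidea, Cidec and Plin4, which form, enlarge or coat lipid droplets; and Cfd, which encodes the secreted protease adipsin. Liver RNA was sequenced from C57BL/6 mice in 12 libraries, 4 in each of 3 groups. The group NFD ate a normal fat diet, HFD a high fat diet, and NAC_HFD the high fat diet while drinking water that held N-acetylcysteine (NAC) at 2 g per litre. NAC is an antioxidant and a precursor of glutathione. All groups were fed for 14 weeks. The labels also give an age of 8 weeks without saying when it was taken, and they do not state the sex of the mice. The labels name no genetic change in any group. The labels number 4 samples per group without naming the animals, so the p-values below measure the spread between these samples, which may in part be technical.

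PPARgamma is a ligand-activated receptor that binds DNA with a retinoid X receptor (RXR) partner and drives the storage programme of fat cells. It is normally low in hepatocytes. In fatty liver it is known to be raised, and several proteins typical of fat cells, among them CIDEA, CIDEC and CD36, then appear in hepatocytes and favour lipid droplet growth.

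The receptor pair is known to bind repeats of the half-site AGGTCA with 1 base between them, AGGTCANAGGTCA. The 250 bases before the transcription start of each member were searched for this motif on both strands, in RefSeq promoters of build GRCm38.p6. Of the members, 7 had an entry, with 10 starts between them. Fabp4 and Cidea were not analysed here. The promoters of the 4 genes that rose on the high fat diet are shown because these genes rose together. They run 5′ to 3′ along the gene's own strand and end at the last base before the start. Capitals mark the stretch with the fewest mismatches to the motif, counted over its 12 fixed letters.

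Mogat1 (chr1:78510810-78511059, + strand): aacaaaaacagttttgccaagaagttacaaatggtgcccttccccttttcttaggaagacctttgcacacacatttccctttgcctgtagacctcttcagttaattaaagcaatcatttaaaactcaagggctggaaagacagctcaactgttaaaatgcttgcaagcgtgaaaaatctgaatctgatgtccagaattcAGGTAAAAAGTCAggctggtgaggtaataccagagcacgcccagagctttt
Cd36 (chr5:17835897-17836146, - strand): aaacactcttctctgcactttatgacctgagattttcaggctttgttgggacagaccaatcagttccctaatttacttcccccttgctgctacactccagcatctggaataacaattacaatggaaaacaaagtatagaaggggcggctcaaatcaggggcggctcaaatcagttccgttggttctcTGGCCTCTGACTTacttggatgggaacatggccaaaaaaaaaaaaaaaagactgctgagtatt
Fitm1 (chr14:55575424-55575673, + strand): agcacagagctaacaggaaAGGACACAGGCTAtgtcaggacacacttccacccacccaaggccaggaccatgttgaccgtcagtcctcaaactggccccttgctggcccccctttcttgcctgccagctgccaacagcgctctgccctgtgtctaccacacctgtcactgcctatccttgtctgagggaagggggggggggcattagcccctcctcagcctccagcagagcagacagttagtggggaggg
Cfd (chr10:79890603-79890852, + strand): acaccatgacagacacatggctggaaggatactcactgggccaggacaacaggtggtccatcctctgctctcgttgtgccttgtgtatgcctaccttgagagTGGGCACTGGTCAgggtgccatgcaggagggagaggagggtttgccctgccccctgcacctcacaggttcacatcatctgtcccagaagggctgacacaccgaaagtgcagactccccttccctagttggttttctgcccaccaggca

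The stretch in Mogat1 reads AGGTAAAAAGTCA on the gene's strand, 51 to 39 bases before the start, and had 2 mismatches. The stretch in Cd36 also had 2 mismatches. It lies 63 to 51 bases before the start, and there the motif reads on the opposite strand. As few mismatches or fewer were found in 3.24% of the 32851 promoters searched, and 11 of those promoters held the exact repeat. The stretches in Fitm1 and Cfd, and the one at the outer Cidec start, had 3 mismatches, which 21.3% of promoters matched or bettered. The other 5 starts (3 of Pparg, the inner start of Cidec, and Plin4) had 4, the median of all promoters. A complete AGGTCA on either strand was present in 3 of the 10 windows, those of Cd36 and of 2 Pparg starts, against 14.0% of all promoters. The Cd36 start lies inside the span that the gene annotation gives for Cd36 (chromosome 5, 17781690 to 17888959, GRCm38.p6), so further starts upstream of it were not searched. These matches describe letters in a window and not binding.

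On the high fat diet, the fatty acid transporter Cd36, the acyltransferase Mogat1, the droplet protein Fitm1 and the secreted protease Cfd rose against NFD. The droplet protein Cidea, too low for the fit across genes, was also higher in all 4 HFD libraries. Pparg, Fabp4, Cidec and Plin4 did not pass the test. Among the 8 members tested by limma, 4 were called higher (adjusted p under 0.05, adjusted over 11376 tested genes) and 0 lower, where 2.78% of all tested genes were called and 2.19% were called higher. Of the 316 calls over all genes, 78.8% were higher. Median-of-ratios scaling gave 395 calls, 69.4% of them higher, and quantile normalization gave 419, 61.8% of them higher. Mogat1 passed the filter on low values only through its HFD libraries and had to differ. Cfd reached 1 TPM in 6 libraries, those of HFD and replicates 1 and 4 of NAC_HFD. Without HFD it would not have passed. Counts and medians over the tested members are therefore given as a description. All 8 fold changes were positive, where 52.7% of all tested genes had a positive one, and the median was 1.29 against 0.01 over all tested genes. At an unadjusted p under 0.05 there were 5 of the 8, the fifth being Plin4, against 19.1% of all tested genes. Fold changes are differences of mean log2(TPM + 1), where TPM is a transcript's length-corrected share of its library, and they understate the change of low genes. In whole liver, more cells that express a gene and more RNA per cell cannot be told apart.

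**Figure D1:**
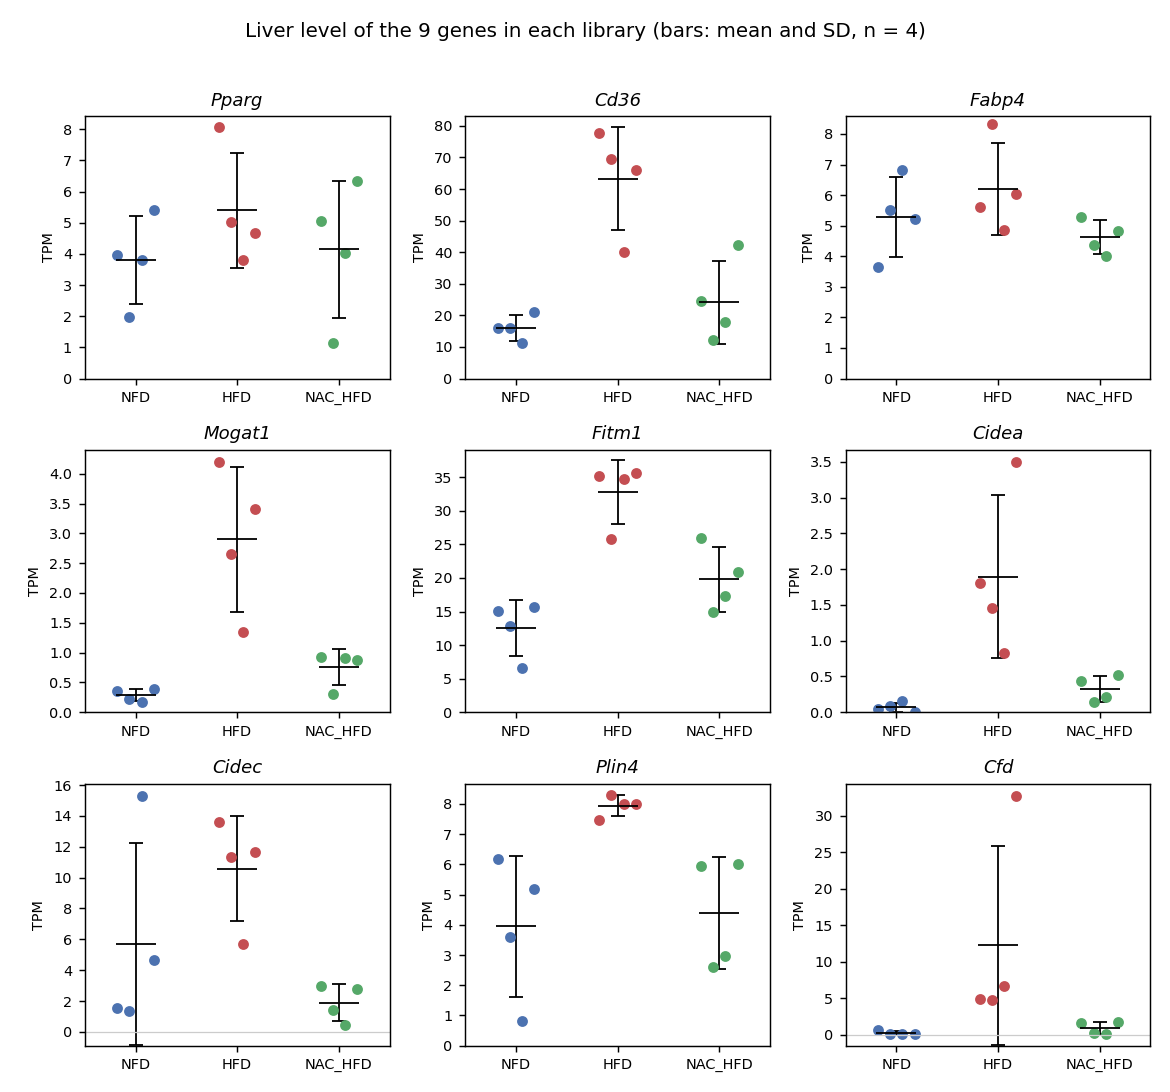
Level (TPM, vertical axes starting at or below 0) of each of the 9 genes in the 4 libraries of NFD, HFD and NAC_HFD; points are libraries, lines are the mean and SD. All 4 HFD libraries lie above all 4 NFD libraries for Cd36, Mogat1, Fitm1, Cidea, Plin4 and Cfd, while Pparg, Fabp4 and Cidec overlap.

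Pparg (ENSMUSG00000000440, chromosome 6, 115360879 to 115490404, GRCm38.p6 here and below) was low in all groups. Its TPM was 3.98, 1.98, 3.81 and 5.42 in the NFD libraries 1 to 4, then 8.07, 5.03, 3.81 and 4.68 in HFD, and 5.07, 1.15, 4.03 and 6.33 in NAC_HFD. The groups overlapped throughout, and the highest HFD library, replicate 1, stood above the rest while HFD replicate 3 equalled NFD replicate 3. The difference HFD minus NFD was 0.43 (SE 0.36, 95% confidence interval -0.37 to 1.22, limma adjusted p = 0.556). That interval leaves a rise of up to 1.22 on the log2 scale within range, so it does not show that the receptor's RNA was the same. At its mean of 5.40 ± 1.85 TPM (SD, n = 4) in HFD, Pparg was above 61.3% of the genes in the table.

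Cd36 (ENSMUSG00000002944, chromosome 5), a scavenger receptor that brings long-chain fatty acids into the cell, had the highest mean level of the 9 in each group. NFD libraries held 15.95, 16.05, 11.13 and 20.99 TPM, HFD libraries 77.83, 69.40, 40.15 and 65.92, and NAC_HFD libraries 24.46, 12.05, 17.86 and 42.19. Every HFD library lay above every NFD library, and NAC_HFD replicate 4 reached above the lowest HFD library. The mean went from 16.0 ± 4.03 to 63.3 ± 16.2 TPM (SD, n = 4 each), 3.95 times as high in HFD, with a log2 fold change of 1.91 (SE 0.33, limma adjusted p = 0.0161). Without HFD replicate 1 the adjusted p was 0.0631 at a log2 fold change of 1.80, and without HFD replicate 4 it was 0.0515 at 1.88. The Cd36 call was lost in both fits, while its fold change moved little. Without HFD replicate 1, calls over all genes also fell, from 316 to 90.

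Fabp4 (ENSMUSG00000062515, chromosome 3, 10204342 to 10208616), the fatty acid carrier of fat cells and macrophages, stayed between 3.64 and 8.34 TPM in all 12 libraries. The HFD libraries held 5.61, 8.34, 4.86 and 6.03 TPM and the NFD libraries 3.64, 5.50, 6.82 and 5.22, and they overlapped. The NAC_HFD libraries, at 5.29, 4.37, 4.02 and 4.84 TPM, lay within the NFD range. The difference of 0.20 (SE 0.16, 95% confidence interval -0.15 to 0.55, limma adjusted p = 0.540) did not pass the test. Fabp4 thus had the smallest estimate of the members in HFD against NFD, with Pparg next.

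Mogat1 (ENSMUSG00000012187, chromosome 1, 78511060 to 78606964), a monoacylglycerol acyltransferase, was low without the high fat diet, its NFD mean being above that of 31.2% of the genes in the table. It stood at 0.35, 0.22, 0.17 and 0.39 TPM in NFD, at 4.2, 2.65, 1.34 and 3.41 in HFD, and at 0.92, 0.31, 0.91 and 0.88 in NAC_HFD. No value of HFD overlapped with either other group. The mean ratio of HFD to NFD was 10.3, and on the log2(TPM + 1) scale the change was 1.55 (SE 0.21, limma adjusted p = 0.00280), the smallest p of the members. Mogat1 reached 1 TPM in 4 libraries, all of them HFD, so it passed the filter only through the group in which it is high. With no filter on low values its adjusted p was 0.0119. With 1 of the 8 libraries left out and the same genes tested as with all 12, the highest adjusted p was 0.0143, without HFD replicate 4. With the filter applied anew, Mogat1 would drop out of the test once any HFD library is left out.

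Fitm1 (ENSMUSG00000022215, chromosome 14, 55575674 to 55576952) encodes a protein of the endoplasmic reticulum that helps pack triglyceride into droplets, and is best known from muscle. NFD libraries held 15.03, 12.81, 6.59 and 15.72 TPM, HFD libraries 35.15, 25.79, 34.69 and 35.68, and NAC_HFD libraries 26.02, 14.98, 17.33 and 20.86. The HFD libraries were all above NFD, and NAC_HFD replicate 1 overlapped with the lowest HFD library. The ratio of means was 2.62 and the log2 fold change 1.37 (SE 0.24, limma adjusted p = 0.0119). The Fitm1 call held in all 8 fits with 1 library left out, with a highest adjusted p of 0.0460 without HFD replicate 1. Summed skeletal muscle markers (8 in the table) stayed between 0.47 and 2.36 TPM in all libraries.

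Cidea (ENSMUSG00000024526, chromosome 18, 67343564 to 67367794), which promotes fusion of lipid droplets and is typical of brown fat, was listed at 0.05, 0.08, 0.15 and 0 TPM in NFD. It was 1.81, 1.45, 0.83 and 3.49 TPM in HFD and 0.43, 0.14, 0.21 and 0.52 in NAC_HFD. Only 3 libraries reached 1 TPM, all of them HFD, so Cidea failed the filter of 1 TPM in at least 4 libraries. HFD did not overlap with NFD, and the difference of mean log2(TPM + 1) was 1.36 (exact two-sided permutation test, p = 0.0286, the smallest that 4 against 4 allows, and 0.0429 adjusted over the 3 Cidea comparisons). In the limma fit without a filter the adjusted p was 0.0183.

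Cidec (ENSMUSG00000030278, chromosome 6, 113424634 to 113435760), the relative of Cidea that makes large single droplets in white fat cells, varied most. The NFD libraries held 1.58, 1.33, 15.29 and 4.65 TPM, the HFD libraries 13.60, 11.33, 5.69 and 11.67, and the NAC_HFD libraries 3, 1.41, 0.44 and 2.76. The highest value of all 12 libraries came from NFD replicate 3, above every HFD library. The difference HFD minus NFD of 1.20 (SE 0.60, limma adjusted p = 0.314) did not pass the test. Without NFD replicate 3 the Cidec difference was 1.78 with an adjusted p of 0.0634, still not called, and the ratio of mean TPM, 1.85 with all libraries, was 4.2 without it.

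Plin4 (ENSMUSG00000002831, chromosome 17, 56100587 to 56109948), a perilipin that coats nascent droplets, gave the tightest HFD group. It stood at 6.17, 3.60, 0.83 and 5.20 TPM in NFD, at 7.46, 8.30, 8.01 and 7.99 in HFD, and at 5.95, 2.61, 2.98 and 6 in NAC_HFD. HFD lay above both other groups with no overlap. The SD was 0.350 TPM in HFD, 2.33 in NFD and 1.84 in NAC_HFD. The difference HFD minus NFD of 1.02 (SE 0.38, unadjusted p = 0.0195, limma adjusted p = 0.172) did not pass the test. NFD replicate 3, which was highest for Cidec, was lowest for Plin4.

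Cfd (ENSMUSG00000061780, chromosome 10, 79890853 to 79892655), also called adipsin or complement factor D, showed the largest ratio. It stood at 0.58, 0.05, 0.05 and 0.12 TPM in NFD, at 4.87, 4.74, 6.63 and 32.69 in HFD, and at 1.60, 0.19, 0.11 and 1.75 in NAC_HFD. All HFD libraries lay above both other groups, and HFD replicate 4 was far above the other 3. The means were 0.2 ± 0.255 and 12.2 ± 13.7 TPM (SD, n = 4 each), a ratio of 61.2 that was 27.1 without HFD replicate 4 and 167 without NFD replicate 1. The log2 fold change was 3.03 (SE 0.55, limma adjusted p = 0.0200). Cfd reached 1 TPM in 6 libraries, those of HFD and replicates 1 and 4 of NAC_HFD. It thus passed the filter through the group in which it is high. With no filter on low values its limma adjusted p was 0.0233. Without HFD replicate 4 the Cfd change was 2.43 with an adjusted p of 0.00938, and the call held in all 8 such fits (highest adjusted p 0.0483, without NFD replicate 3). HFD replicate 4 also had the highest summed level of 16 Kupffer cell and macrophage markers, 316 TPM against 125 to 219 in the other HFD libraries.

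Counted over all 9 members, 6 had every HFD library above every NFD library (Cd36, Mogat1, Fitm1, Cidea, Plin4 and Cfd), where 7.78% of the tested genes did so and 12.4% were separated in either direction. This count is a description: Mogat1 and Cfd passed the filter through HFD, so Mogat1 had to be separated, and Cidea is not among the tested genes. The mean was higher in HFD for all 9. The summed TPM of the 9 genes ran from 41.6 to 57.7 in NFD and from 106 to 172 in HFD. Cd36 and Fitm1, with the highest means in each group, weigh most in these sums.

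**Figure D2:**
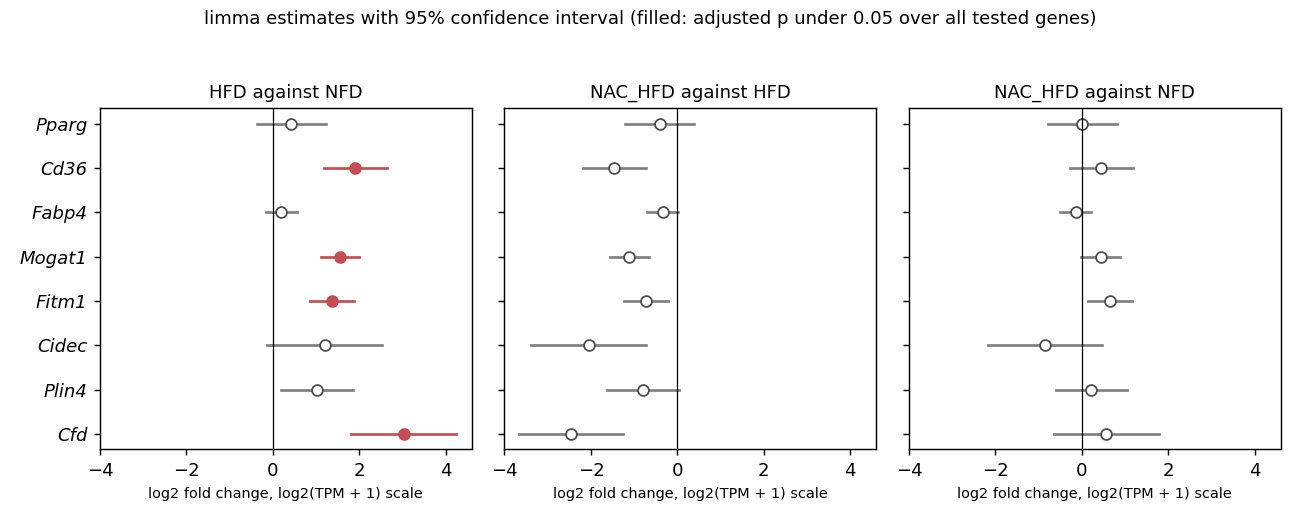
limma log2 fold change on the log2(TPM + 1) scale (horizontal axis) with its 95% confidence interval for the 8 tested genes in each of the 3 comparisons; filled points have an adjusted p under 0.05. The filled points are Cd36, Mogat1, Fitm1 and Cfd, all in HFD against NFD; in NAC_HFD against HFD every point lies below 0 and none is filled.

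With NAC in the water, the means of all 9 members were lower than in HFD, and none of the 8 tested members passed the adjusted threshold. The comparison of NAC_HFD with HFD uses the same HFD libraries as the one above, so the 2 sets of fold changes are not independent: a high HFD library raises the first and lowers the second. In this comparison limma called 0 members and 0 of all tested genes (0%). At an unadjusted p under 0.05 there were 5 of the 8 members and 1870 of all tested genes (16.4%). All 8 fold changes were negative, where 31.5% of all tested genes had a positive one, and the median was -0.95 against -0.08 over all tested genes.

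Mogat1 came closest to the threshold. Its mean went from 2.90 ± 1.22 TPM in HFD to 0.755 ± 0.297 in NAC_HFD (SD, n = 4 each), 0.260 of the HFD mean, with a log2 difference of -1.11 (SE 0.21, limma adjusted p = 0.0515). The Mogat1 difference was called without HFD replicate 3 (-1.34, adjusted p = 0.0160) or without NAC_HFD replicate 1 (-1.16, adjusted p = 0.0462), and in none of the other 6 fits with 1 library left out, where the adjusted p reached 0.168. Cfd had a difference of -2.46 (SE 0.55, limma adjusted p = 0.0870) and a mean of 0.913 ± 0.883 TPM in NAC_HFD. Cd36 had a difference of -1.45 (SE 0.33, limma adjusted p = 0.0880), with 24.1 ± 13.1 TPM in NAC_HFD.

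Cidec, at 1.90 ± 1.20 TPM, had a difference of -2.05 (SE 0.60, limma adjusted p = 0.149). Fitm1, at 19.8 ± 4.80 TPM, had one of -0.72 (SE 0.24, limma adjusted p = 0.175). For Plin4 the difference was -0.80 (limma adjusted p = 0.318), for Fabp4 -0.34 (0.319) and for Pparg -0.41 (0.607). For Cidea the exact permutation test gave a difference of -1.06 with p = 0.0286 (0.0429 adjusted over the 3 Cidea comparisons), whereas the limma fit without a filter gave an adjusted p of 0.0989 over all genes.

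Every NAC_HFD library was below every HFD library for 5 of the 9 members (Mogat1, Cidea, Cidec, Plin4 and Cfd), where 8.66% of tested genes were separated downward and 10.2% in either direction. This count is a description: Mogat1 and Cfd passed the filter through HFD, so Mogat1 had to be separated, and Cidea is not among the tested genes. Cd36 and Fitm1 missed this by 1 library each. The summed TPM of the 9 genes ran from 37.2 to 86.1 in NAC_HFD, below the lowest HFD library at 106. This sum is weighted towards Cd36 and Fitm1, which had the highest means of the 9 and each overlapped between NAC_HFD and HFD.

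Set against NFD, the NAC_HFD libraries overlapped with NFD for all 9 genes, where 3.52% of tested genes were separated upward and 8.52% downward. limma called 0 of the 8 members, against 601 of 11376 genes (5.28%). At an unadjusted p under 0.05 there was 1 member, Fitm1, against 22.6% of tested genes. Of those 601 genes, 33.3% were higher. Median-of-ratios scaling gave 632 calls, 57.4% of them higher, and quantile normalization gave 608, 51.6% of them higher. The Fitm1 difference was 0.66 (SE 0.24, 95% confidence interval 0.14 to 1.17, limma adjusted p = 0.124). Mogat1 had a difference of 0.44 (95% confidence interval -0.01 to 0.88, limma adjusted p = 0.228) and Cd36 one of 0.45 (-0.28 to 1.19, adjusted p = 0.451). Cidec had a negative estimate, -0.85 (-2.18 to 0.48, limma adjusted p = 0.430), and its interval was the widest of the 8. Of the 8 estimates, 6 were positive, where 37.5% of all tested genes had a positive one, and the median was 0.33 against -0.07. The Pparg estimate of 0.02 had no stable sign, running from -0.20 to 0.39 as single libraries were left out, and the Plin4 estimate of 0.23 became -0.20 without NFD replicate 3. These intervals do not show that NAC_HFD and NFD were alike.

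**Figure D3:**
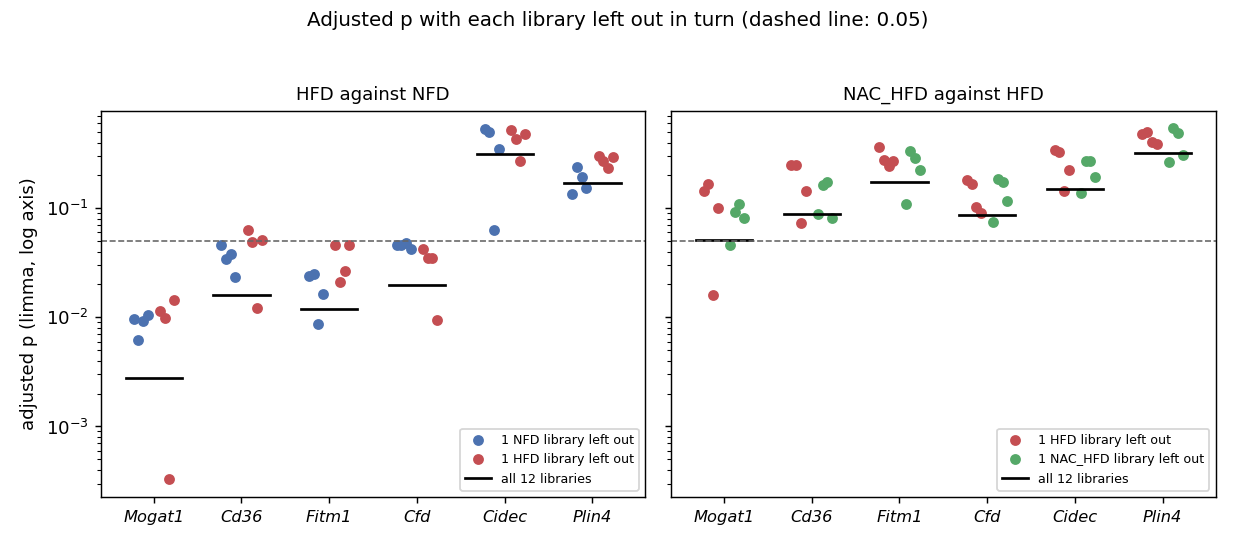
limma adjusted p (log axis) of 6 members in HFD against NFD (left) and NAC_HFD against HFD (right); each point leaves out 1 library, black bars use all 12 and the dashed line marks 0.05. On the left, with the same genes tested throughout, Mogat1, Fitm1 and Cfd stay under the line in all 8 fits and Cd36 in 6; on the right, Mogat1 falls below it in 2 of 8.

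The members varied more between libraries of one group than most genes. Their within-group SD of log2(TPM + 1) ran from 0.26 for Fabp4 to 0.89 for Cidec, against a median of 0.18 over all tested genes. It was larger than that of 79.9% of tested genes for Fabp4 and of 99.4% for Cidec, with the other 6 tested members between them. The same libraries recurred at the ends. HFD replicate 3 was the lowest HFD library for 6 of the 9 members, and NAC_HFD replicate 2 the lowest of its group for 6. In NAC_HFD, replicate 4 was highest for 5 members and replicate 1 for the other 4.

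Over all 12 libraries, Pearson correlations on the log2(TPM + 1) scale between pairs of members ran from 0.04 for Fabp4 with Plin4 to 0.94 for Cd36 with Mogat1. The 12 libraries span the 3 diet groups, so shared group differences enter these values. Cd36 was also close to Fitm1 (0.85), Cfd (0.85) and Plin4 (0.80). Pparg correlated with Cd36 at 0.66 and with Mogat1 at 0.59. Fabp4 was closest to Cidec (0.78), and both were highest in NFD replicate 3 among the NFD libraries.

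The mRNA transcripts behind these gene levels were examined next, in a fit over 22591 transcripts on the log2(TPM + 0.5) scale. The members have 27 mRNA transcripts in the table, of which 20 were tested. limma called 5 of them higher in HFD than in NFD and 0 lower, where 0.425% of tested transcripts were called and 0.372% were called higher. Without the HFD libraries, the called transcripts of Mogat1, Cidea and Cfd would not reach 0.5 TPM in 4 libraries. They passed the filter through the group in which they are high, so these counts are a description. At an unadjusted p under 0.05 there were 11 of the 20, against 12.5% of all tested transcripts. No member transcript was called in NAC_HFD against HFD (0.0133% of all tested transcripts), with 8 of the 20 and 11.2% of all at an unadjusted p under 0.05. None was called in NAC_HFD against NFD (0.837% of all), with 2 of the 20 and 15.7% of all at an unadjusted p under 0.05.

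For Mogat1 the called transcript was ENSMUST00000012331, which held 94.8% of the gene's TPM (log2 fold change 2.05, SE 0.29, limma adjusted p = 0.0146). The Fitm1 transcript ENSMUST00000022826 is the only one of that gene in the table (1.41, SE 0.25, limma adjusted p = 0.0405). The same holds for the Cidea transcript ENSMUST00000025404, which passed the lower transcript floor through its HFD libraries (1.96, SE 0.30, limma adjusted p = 0.0235). These calls were lost more often than the gene calls when 1 library was left out. With 1 of the 8 libraries left out in turn, the transcript of Mogat1 stayed called in 5 fits, that of Cidea in 3 and that of Fitm1 in 1.

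Cd36 had 6 mRNA transcripts, and their shares differed between groups. The main one, ENSMUST00000169095, held 40.8% of the gene in NFD, 42.0% in HFD and 32.3% in NAC_HFD. ENSMUST00000197574 held 21.3% in NFD, 18.9% in HFD and 32.6% in NAC_HFD, where its share was the largest. It stood at 11.9 ± 2.59 TPM in HFD and 7.88 ± 6.29 in NAC_HFD, and these groups overlapped (log2 difference -0.79, SE 0.38, limma adjusted p = 0.476). ENSMUST00000165232 went from 1.28 ± 0.788 TPM in NFD to 10.8 ± 4.53 in HFD (SD, n = 4 each), or from 7.95% to 17.1% of the gene, and was the one called (log2 fold change 2.70, SE 0.51, limma adjusted p = 0.0492). That call was lost whichever of the 8 libraries was left out, with an adjusted p of up to 0.169 (HFD replicate 1 left out). ENSMUST00000197890 stood at 2.59 ± 0.567 TPM in NFD and 3.95 ± 1.54 in HFD (0.48, limma adjusted p = 0.426), so its share of Cd36 was 16.2% in NFD, 6.24% in HFD and 12.5% in NAC_HFD. Shares of transcripts were not tested as such.

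Cfd had 2 mRNA transcripts. ENSMUST00000061653, whose best protein match in the deposited annotation is complement factor D isoform 1, was listed at 0 in 3 of the NFD libraries and at 0.12 TPM in the other. It stood at 3.5, 4.74, 4.73 and 23.20 TPM in the HFD libraries (HFD minus NFD 3.76, SE 0.53, limma adjusted p = 0.0155). That call held in 7 of 8 fits with 1 library left out, and the adjusted p was 0.0563 without NFD replicate 1. ENSMUST00000217837, matched to isoform 2, was 1.37, 0, 1.90 and 9.49 TPM in HFD and made up the whole of Cfd in NFD replicates 1, 2 and 3 (1.78, SE 0.72, limma adjusted p = 0.323).

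For Pparg, 4 mRNA transcripts each held over 10% of the gene. ENSMUST00000000450 was 1.16, 0, 0 and 0.99 TPM in NFD, 5.93, 0.21, 1.06 and 2.02 in HFD, and 2.70, 0, 0 and 3.80 in NAC_HFD. It made up 14.2% of Pparg in NFD, 42.7% in HFD and 39.2% in NAC_HFD, mostly from HFD replicate 1 and NAC_HFD replicate 4 (HFD minus NFD 1.21, SE 0.85, limma adjusted p = 0.602). ENSMUST00000171644, the only Pparg transcript above 0 in all 12 libraries, stayed between 0.78 and 2.25 TPM (0.18, SE 0.25, limma adjusted p = 0.808). The sources used here do not say which of these encodes the fat cell isoform PPARgamma2. Noncoding transcripts of the locus held 9.22% of the gene's TPM.

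**Figure D4:**
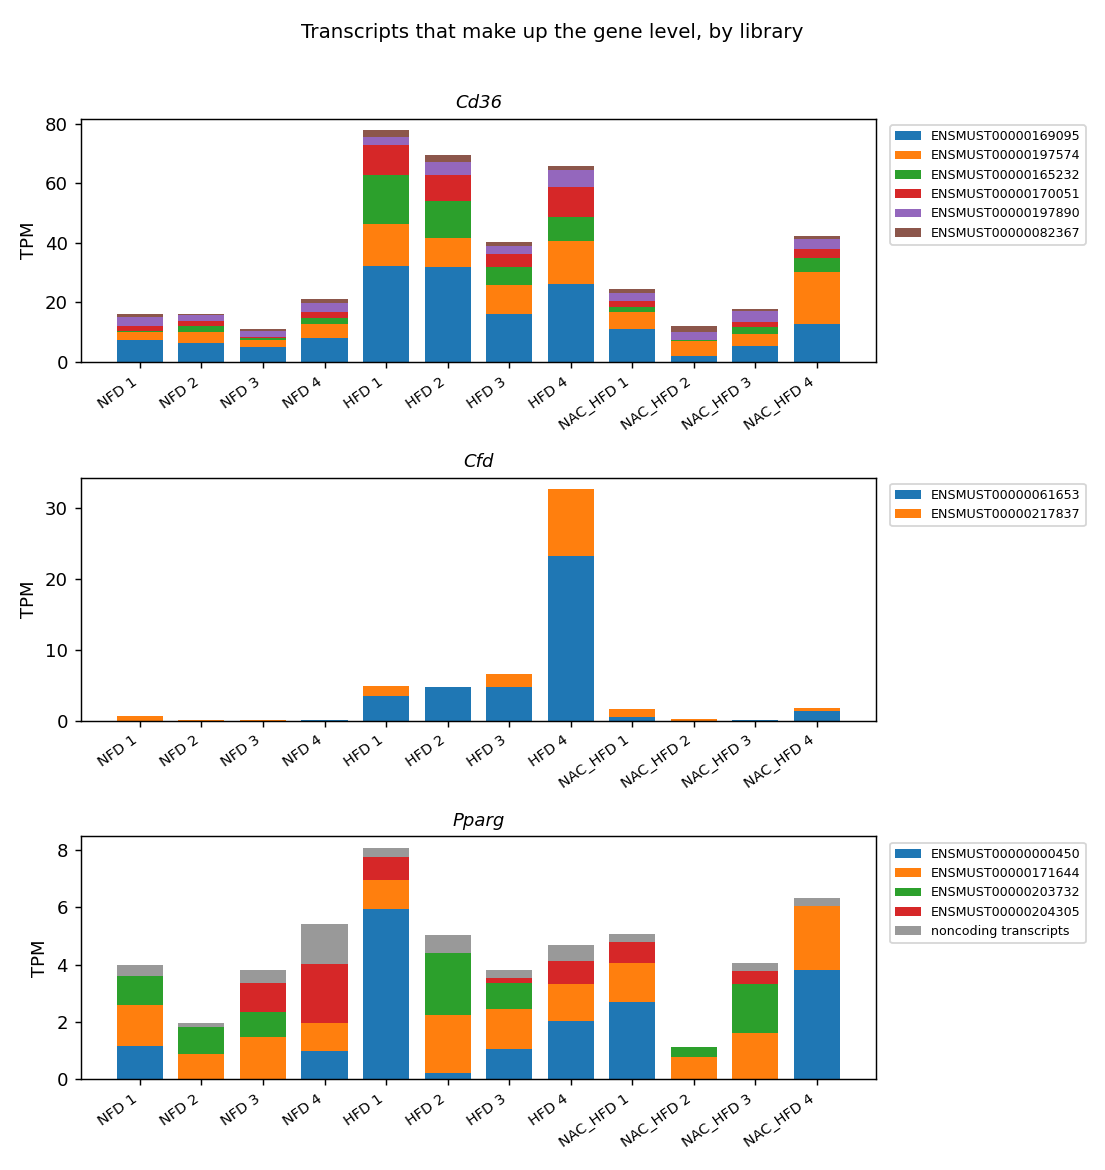
TPM of the transcripts that make up Cd36, Cfd and Pparg in each of the 12 libraries (stacked bars, vertical axis in TPM from 0). The Cd36 bars grow in HFD across most transcripts, the Cfd bar is highest in HFD replicate 4, and the make-up of the Pparg bars differs from library to library within each group.

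Cidec was carried by ENSMUST00000113091 (61.5% of the gene) and ENSMUST00000032416 (32.5%). The first was 7.60, 7.61, 3.73 and 7.72 TPM in HFD and 1.67, 0.72, 0 and 2.08 in NAC_HFD (log2 difference -2.35, SE 0.65, limma adjusted p = 0.250). In HFD replicate 4, ENSMUST00000032416 was listed at 0.01 TPM and another transcript, ENSMUST00000113089, at 3.66 TPM, while that one was at 0 in the other 11 libraries. Plin4 was carried by ENSMUST00000002908 (81.8%), which had an HFD minus NFD difference of 1.18 (SE 0.40, limma adjusted p = 0.231), and ENSMUST00000190703 (18.2%). Fabp4 was carried by ENSMUST00000029041 (93.2%).

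The authors' deposited tables of changed transcripts were read for the same genes. For HFD against NFD the authors' deposited table lists 11 member transcripts, all higher, from 6 genes, and 8 of them from 5 genes (Cd36, Cfd, Cidea, Fitm1 and Mogat1) have an adjusted p under 0.05. Of all 53634 mRNA transcripts, 2.07% are listed there and 0.516% have an adjusted p under 0.05. For NAC_HFD against HFD the authors' deposited table lists 7 member transcripts, all lower, from 5 genes. Of these, 4 have an adjusted p under 0.05 in the authors' deposited table, from Cd36 (ENSMUST00000169095, log2 fold change -1.67, adjusted p = 0.0212), Mogat1 (-1.92, 0.0167), Cidea (-2.45, 0.0379) and Cfd (ENSMUST00000061653, -4.09, 0.0300). Of all mRNA transcripts, 1.76% are listed in that table, and 0.283% have an adjusted p under 0.05. The authors' deposited table thus calls 4 member transcripts lower with NAC where the limma fit on TPM called 0. The sources used here do not name the test behind the authors' values.

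Other genes of the pathway were read from 2 lists. Of 24 partners and regulators of PPARgamma, 22 were tested and 0 were called in HFD against NFD or in NAC_HFD against HFD, with 7 and 3 at an unadjusted p under 0.05. Over all tested genes, 2.78% and 0% were called, and 19.1% and 16.4% had an unadjusted p under 0.05. The 2 most abundant in this list were Cebpa, a liver and fat cell transcription factor, at 138 ± 11 TPM in NFD and 114 ± 11.6 in HFD (limma adjusted p = 0.185), and Rxra, the main RXR of liver, at 109 ± 5.01 and 127 ± 1.53 TPM (limma adjusted p = 0.254). Cebpb, an early activator of fat cell differentiation, was called higher in NAC_HFD than in NFD, at 26.0 ± 9.37 against 12.5 ± 4.11 TPM (log2 fold change 0.99, SE 0.23, limma adjusted p = 0.0306). The Cebpb call was lost in 6 of 8 fits with 1 library left out (without NFD replicates 2, 3 or 4 or NAC_HFD replicates 2, 3 or 4, adjusted p up to 0.0642) and with the replicate number as a block (0.0757).

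Of 36 further PPARgamma targets and fat storage genes, 33 were tested and 0 were called in HFD against NFD or in NAC_HFD against HFD. At an unadjusted p under 0.05 there were 8 in each, against 19.1% and 16.4% of all tested genes. In HFD against NFD, 26 of the 33 estimates were above 0, where 52.7% of all tested genes were, and their median was 0.26 against 0.01. In NAC_HFD against HFD, 13 of the 33 were above 0, where 31.5% of all tested genes were. Their median there was -0.07 against -0.08, so this list did not fall further than all tested genes. The most abundant were Fabp1, the liver fatty acid carrier, at 4102 ± 1373 TPM in NFD and 5160 ± 923 in HFD (limma adjusted p = 0.321), and Scd1, which desaturates fatty acids, at 1225 ± 761 and 1903 ± 711 TPM (limma adjusted p = 0.511). Some estimates that did not pass the test were as large as those of some members, and a few are named here after their values were seen. Angptl4, a secreted inhibitor of lipoprotein lipase, stood at 19.3 ± 9.59 TPM in NFD and 40.6 ± 11.6 in HFD (log2 fold change 1.14, SE 0.33, limma adjusted p = 0.0906). G0s2, an inhibitor of triglyceride breakdown, stood at 163 ± 109 TPM in NFD, 268 ± 48.8 in HFD and 107 ± 88.3 in NAC_HFD. Its limma adjusted p was 0.412 in HFD against NFD, and 0.239 for the difference of -1.60 in NAC_HFD against HFD. Lpin1 went the other way with NAC, at 122 ± 77.1 TPM in HFD and 280 ± 39.3 in NAC_HFD (log2 fold change 1.41, SE 0.74, limma adjusted p = 0.371). Against NFD, NAC_HFD had higher Gpcpd1, a glycerophosphocholine hydrolase, at 62.0 ± 7.44 against 21.1 ± 3.14 TPM (log2 fold change 1.52, SE 0.16, limma adjusted p = 0.000469). Gpcpd1 stayed called in all 8 fits with 1 library left out. In HFD, Gpcpd1 stood at 33.2 ± 7.99 TPM (limma adjusted p = 0.0509 against NFD, and 0.0515 for NAC_HFD against HFD). Dgat1, which makes triglyceride from diacylglycerol, was lower, at 6.85 ± 1.16 against 10.1 ± 0.640 TPM (-0.51, SE 0.11, limma adjusted p = 0.0212). The Dgat1 call was lost without NFD replicate 3, NAC_HFD replicate 3 or NAC_HFD replicate 4 (adjusted p up to 0.0589).

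Several members are also made by fat cells and macrophages, so markers of those cells were read beside them. Of 15 white fat cell markers in the table, 5 were tested. Some were at or near 0 in all 12 libraries: Adipoq reached at most 0.15 TPM, Retn 0.12, Plin1 0.27 and Adig 0.26. Others were present: Lipe ran from 4.1 to 8.43 TPM and Lpl from 5.32 to 8.82, both tested and not called in any comparison. Adrb3, not tested, ran from 0.45 to 1.08 TPM. The summed white fat list ran from 1671 to 2472 TPM in NFD, 3262 to 3846 in HFD and 2609 to 3832 in NAC_HFD, nearly all of it from Car3, Pck1 and Agt, which liver also expresses. Car3, a carbonic anhydrase, was called higher in HFD (1962 ± 111 against 696 ± 210 TPM, log2 fold change 1.56, SE 0.21, limma adjusted p = 0.00316) and in NAC_HFD (1536 ± 290 TPM, 1.18, limma adjusted p = 0.0102) than in NFD. Of 6 brown fat markers, 4 did not reach the filter: Ucp1, Cox8b, Dio2 and Otop1, at most 0.05, 0.21, 0.01 and 0.02 TPM. The other 2 were tested and not called. Cox7a1, a subunit of cytochrome oxidase, ran from 0.72 to 3.98 TPM (means 1.31 in NFD and 2.24 in HFD, limma adjusted p = 0.449), and Elovl3, a fatty acid elongase that liver also expresses, from 11.2 to 34.6 TPM (25.0 and 25.7, limma adjusted p = 0.970). The summed brown fat list ran from 18.9 to 35.2 TPM in NFD, 19.4 to 35.5 in HFD and 13.5 to 26.8 in NAC_HFD. The part of fat cells in the values of the members was not tested.

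**Figure D5:**
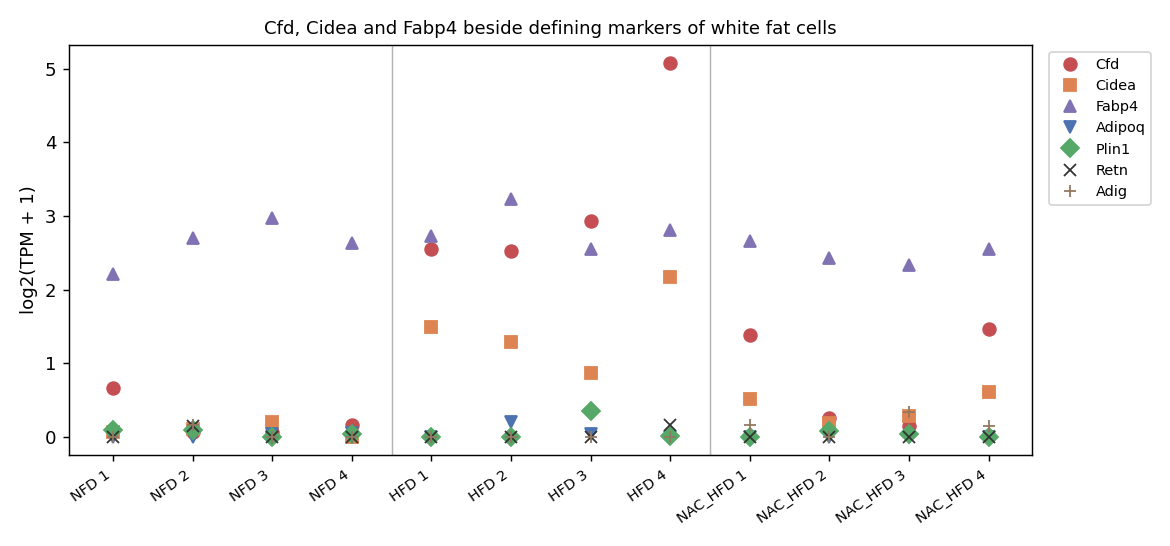
log2(TPM + 1) (vertical axis) of Cfd, Cidea and Fabp4 and of 4 white fat cell markers (Adipoq, Plin1, Retn, Adig) in each of the 12 libraries. Other markers of that list are not drawn, among them Lipe (4.1 to 8.43 TPM) and Lpl (5.32 to 8.82 TPM). The 4 markers drawn stay near 0 in all libraries (at most 0.27 TPM), also in HFD replicate 4, where Cfd reached 32.69 TPM.

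Kupffer cell and macrophage markers moved in the same direction as the members. Their 16 genes summed to between 98.0 and 182 TPM in NFD, 125 and 316 in HFD, and 85.8 and 173 in NAC_HFD, so the groups overlapped. All 12 tested markers had a positive fold change in HFD against NFD (median 0.55) and a negative one in NAC_HFD against HFD (median -0.72), and 0 were called in either, with 4 and 9 at an unadjusted p under 0.05. Over all tested genes, the fold change was positive in 52.7% and 31.5%, with medians of 0.01 and -0.08. An unadjusted p under 0.05 was found for 19.1% and 16.4% of all tested genes. HFD replicate 3 and NAC_HFD replicate 2, each the lowest of its group for 6 of the 9 members, also had the lowest marker sums of their groups (125 and 85.8 TPM). The part of these cells in the values of Cd36, Fabp4 and Cfd was not tested. Endothelial markers summed to between 116 and 166 TPM and stellate cell markers to between 97.3 and 145 TPM across all libraries, with 0 called in any comparison. All 11 hepatocyte markers in the table were tested. In HFD against NFD 0 were called, with 5 at an unadjusted p under 0.05, and in NAC_HFD against HFD 0, with 4, beside the same 19.1% and 16.4% of all tested genes. In NAC_HFD against NFD, 1 was called, Cyp2e1, a cytochrome P450 of central-vein hepatocytes, at 9323 ± 502 against 6128 ± 658 TPM (log2 fold change 0.61, SE 0.11, limma adjusted p = 0.00816). In HFD, Cyp2e1 stood at 7391 ± 592 TPM (limma adjusted p = 0.178 against NFD, and 0.149 for NAC_HFD against HFD). Of the 8 exocrine pancreas markers 1 was tested: Cela1, an elastase, was called higher in NAC_HFD than in NFD (24.3 ± 5.05 against 14.5 ± 3.25 TPM, limma adjusted p = 0.0321). Cela1 ran from 9.71 to 31.5 TPM over all libraries, whereas every other marker of that list stayed at or below 0.18 TPM. The Cela1 call was lost in 5 of 8 fits with 1 library left out (NFD replicates 1, 3 and 4 and NAC_HFD replicates 3 and 4, adjusted p up to 0.0847). Among 12 liver genes that differ between the sexes, of which 8 were tested, Cyp2b9, a female-biased cytochrome P450, was called higher than in NFD (0.508 ± 0.483 TPM) in HFD (62.9 ± 34.9 TPM, log2 fold change 5.24, limma adjusted p = 0.0102) and in NAC_HFD (46.1 ± 42.1 TPM, 4.44, limma adjusted p = 0.0158).

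The genes whose levels ran most like those of 3 members over the 12 libraries were listed by Pearson correlation, as a description over libraries that share the diet groups. For Pparg the 5 closest were Nt5dc1 (0.89), Ppp2r1b (0.89), Cpt2 (0.88), Rtf2 (0.86) and Cd52 (0.85). For Cd36 the 4 closest were Lgals1 (0.98), Psme1 (0.96), H2-Q1 (0.95) and Grpel2 (0.95). Lgals1, which encodes galectin-1, had means of 3.46, 25.8 and 6.71 TPM in NFD, HFD and NAC_HFD. For Cfd the 5 closest were Ldhd (0.94), Pmm1 (0.92), Mcm4 (0.91), Lgals1 (0.90) and Nfe2l1 (0.90). None of the genes named for Pparg was among those named for Cd36 or Cfd.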

How the data were processed

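Groups and replicate numbers of the 12 mouse liver libraries were taken from the sample labels. The submitters' processing notes name fastp, HISAT, RSEM and the build GRCm38, with no versions or settings. The deposited gene, mRNA and lncRNA tables hold TPM made by the authors, which keeps no read depth, so the depth is unknown and a 0 is only listed at 0. Per the file headers, the authors' deposited tables of changed transcripts give each fold change as a ratio and on the log2 scale, a p-value and its adjusted value.

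Genes that reached 1 TPM in 4 or more libraries (11376 of 19252) were put on the log2(TPM + 1) scale, and mRNA transcripts with at least 0.5 TPM in at least 4 (22591 of 53634) on log2(TPM + 0.5). limma 3.58.1 in R 4.3.3 fitted the 3 group means over all 12 libraries (lmFit, then eBayes, both trend and robust set). Tests were two-sided, with Benjamini-Hochberg adjustment over the whole table of each comparison and a threshold of 0.05. The fit was tested on simulated data. Cidea, below the filter, was compared by exact permutation tests over the samples. The gene sums equalled their mRNA and lncRNA transcripts within 0.02 TPM for all 9 members. Alternatives were the pseudocount, the filter, the scaling between libraries, the variance moderation, the samples in the fit, the replicate number as a block, and leaving out each library. Outlying libraries were found with Dixon's ratio.

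The 9 members and all gene lists were chosen with earlier results of these data known, so no test of the members as a set was made. The Cidea permutation p-values were adjusted over its 3 comparisons alone and are a description. Every member is named. Of the other lists, genes past the threshold, at most 5 per comparison, and the 2 most abundant of the PPARgamma lists are named, with some others marked as chosen after their values were seen, and for Pparg, Cd36 and Cfd the 5 genes closest in correlation, of which 1 is not reported here. The transcripts named held at least 10% of their gene's TPM, with ENSMUST00000197890 of Cd36 and ENSMUST00000113089 of Cidec added after their values were seen. Some other Cd36 and Pparg transcripts above 10% are not named.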

Additional observations from a re-analysis of the deposited data

Results flagged for a closer look

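In 4 of the 27 sets of 4 libraries checked (9 genes in 3 groups), 1 library stood far from the other 3, with a gap to its nearest neighbour above the critical share of the whole range in Dixon's test. Chance flags about 1 in 20 such sets where values are normally distributed. The gaps were taken on TPM without a log scale, so the share that chance flags here is not known. Cfd was at 32.69 TPM in HFD replicate 4, where the next library was at 6.63 TPM. In NFD, Cfd was at 0.58 TPM in replicate 1 and at 0.12 TPM in the next. Fitm1 was at 25.79 TPM in HFD replicate 2, below the other HFD libraries at 34.69 TPM and more. Mogat1 was at 0.31 TPM in NAC_HFD replicate 2, below the other NAC_HFD libraries at 0.88 TPM and more.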

How the results depend on the processing

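Some settings could move only the adjusted p of a member and not its fold change. These were the filter, the variance moderation, the replicate block, and leaving out libraries of the group not compared. In HFD against NFD, 156 recomputed member values kept their direction and side of the threshold, and 2 of Cd36 lost the call. In NAC_HFD against HFD, 156 did and 2 of Mogat1 gained it. In NAC_HFD against NFD, 152 did and 6 changed sign: Pparg with a pseudocount of 0.1 (-0.023), without NFD replicate 2 (-0.19) or NAC_HFD replicates 1 (-0.11), 3 (-0.02) or 4 (-0.20), and Plin4 without NFD replicate 3 (-0.20). With 1 library left out these ran from -0.20 to 0.39 for Pparg and from -0.20 to 0.46 for Plin4. Called members in HFD against NFD fell from 4 to 2 with a floor of 5 TPM, which Mogat1 and Cfd do not reach in 4 libraries. With 1 library left out, called members numbered 3 to 4, 0 to 1 and 0 to 0 in HFD against NFD, NAC_HFD against HFD and NAC_HFD against NFD. Called genes numbered 90 (without HFD replicate 1) to 375, 0 to 64 (without NAC_HFD replicate 1) and 211 (without NAC_HFD replicate 4) to 618, and called mRNA transcripts 13 (without HFD replicate 4) to 155, 1 to 8 and 33 to 217. With no filter, 168 genes were called in HFD against NFD and 289 in NAC_HFD against NFD; with only those groups in the fit, 188 in the latter. A floor of 0.1 TPM gave 61 transcripts in HFD against NFD. The cause was not tested.

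Same-numbered libraries did not vary together (correlations of deviations -0.17 to 0.18), and the labels do not say that numbers pair samples. With a replicate block, called members stayed at 4, 0 and 0. Called genes were 225, 3 and 406 against 316, 0 and 601 without it, and transcripts 24, 1 and 25 against 96, 3 and 189. The Fitm1, Cidea and Cd36 transcripts lost their calls (adjusted p 0.0655, 0.0673 and 0.121). Depth behind TPM is unknown, so values under 1 TPM carry an unknown counting error.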
